A study of Mus musculus with 6 samples.

Results

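The Krüppel-like factors examined here are 10 transcription factor genes: Klf2, Klf3, Klf4, Klf5, Klf6, Klf7, Klf9, Klf10, Klf13 and Klf16. These members were found by gene symbol among the 21240 genes of the count table, which also holds other Klf genes. Of these 10, 9 were expressed enough to be tested, as were 11080 genes in all, and Klf2 was not. The data are strand-specific total RNA-seq of NMuMG cells, an epithelial line from normal mouse mammary gland that takes on a mesenchymal shape when exposed to transforming growth factor β (TGFβ). The study followed changes of chromatin, enhancers and transcription under TGFβ. The RNA comparisons used here ask which genes had changed after 2 h and which after 12 h. All cultures were first kept for 6 h without serum and without insulin. They were then given vehicle for 2 h (veh), 5 ng/ml TGFβ1 for 2 h (TGFb2h) or 5 ng/ml TGFβ1 for 12 h (TGFb12h), with 2 biological replicates in each of the 3 groups. Since vehicle was taken at 2 h alone, the effect of 12 h of TGFβ1 cannot be told apart from that of the longer time without serum, and this holds for every comparison that involves the 12 h cultures. A single cell line was used, so the replicates measure the spread between its cultures.

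Krüppel-like factors bind GC-rich DNA, in particular GC boxes and CACCC boxes, through zinc fingers at their C-terminal end, and the related Sp proteins bind the same boxes. The N-terminal parts differ and set what each protein does at its targets. Klf3 and its relatives recruit the corepressor CtBP, whereas Klf9, Klf10, Klf13 and Klf16 bind the corepressor SIN3A. Klf2, Klf4, Klf5, Klf6 and Klf7 carry activation domains, and Klf4 and Klf5 can also repress. In epithelia, Klf4 is known for its part in differentiation and Klf5 for its part in proliferation. Klf10 was first described as a TGFβ-inducible early gene.

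The 6 libraries held 14705886 to 23786993 counts each. Levels are given as TMM-scaled CPM, in which the counts of a gene are set against the size of its library, and a change as log2FC, the log2 of the fold change. A gene is called changed at an adjusted p under 0.05 in the quasi-likelihood test of edgeR (Benjamini-Hochberg, over all genes tested), and robustly changed when the absolute log2FC also exceeds 1. Smad7 and Skil, direct targets of TGFβ signaling, were robustly higher at both times, with log2FCs of 2.07 and 2.09 at 2 h. The epithelial keratins Krt8 and Krt18 were abundant, whereas Epcam had at most 16 counts in any library, and Cldn3 and Cldn7 were at 0 in all vehicle and 12 h libraries and had 1 and 7 counts in TGFb2h replicate 2. The summed level of 7 epithelial markers, 4 of them tested, was 4964 to 5784 CPM in vehicle, 6444 to 6479 CPM at 2 h and 10330 to 10380 CPM at 12 h, and that of 5 fibroblast markers was 3.57 to 4.594, 8.656 to 8.781 and 13.31 to 14.38 CPM. Of the fibroblast markers, Col1a1 followed the sum (means of 0.961, 5.79 and 10.9 CPM), whereas Pdgfra was at 2.47, 2.45 and 2.63 CPM, Col3a1 and Dcn had at most 13 and 11 counts in any library and Thy1 was at 0. The sum of 4 myoepithelial markers, mostly Krt14, was 2.805 to 5.3 CPM in vehicle, 9.112 to 12.21 CPM at 2 h and 6.015 to 9.401 CPM at 12 h. At 12 h Krt8 and Krt18 were higher (log2FC 1.63 and 1.53) and Krt19 was lower (-1.95). The part of these shifts in the results for the Klf genes was not tested.

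For 7 members with a RefSeq promoter sequence (GRCm38.p6), the 250 bases before the transcription start were searched for the boxes that the family itself binds. At least 1 GC box (GGGCGG or its complement CCGCCC) was present in 6 of the 7, against 32.7% of 32851 promoters. A CACCC box (CACCC or GGGTG) was present in 5 of the 7, against 52.0% of all, and the 7 promoters held 0 to 5 matches beside a median of 1 over all. These promoters held 59.2% to 78.4% G and C, and the median over all promoters was 52.4%. The CAGAC element that SMAD proteins recognize (CAGAC or GTCTG) was found in 1 of the 7, the Klf3 promoter, against 42.2% of all promoters. No entry was found for Klf5, Klf10 and Klf16. The promoters of Klf3, Klf7 and Klf13 are printed because these 3 of the 7 genes changed robustly within 2 h. They read 5′ to 3′ along the strand of the gene, and capitals mark matches to any of the 3 motifs on either strand, which run together where matches overlap or adjoin. The positions are chr5:64803271-64803520 on the plus strand for Klf3, chr1:64121390-64121639 on the minus strand for Klf7 and chr7:63938916-63939165 on the minus strand for Klf13.
Klf3: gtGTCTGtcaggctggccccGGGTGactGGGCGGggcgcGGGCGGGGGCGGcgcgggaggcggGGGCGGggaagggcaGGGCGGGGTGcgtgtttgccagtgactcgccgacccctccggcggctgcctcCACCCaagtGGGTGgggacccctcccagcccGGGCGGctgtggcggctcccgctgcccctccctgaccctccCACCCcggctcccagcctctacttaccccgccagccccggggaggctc
Klf7: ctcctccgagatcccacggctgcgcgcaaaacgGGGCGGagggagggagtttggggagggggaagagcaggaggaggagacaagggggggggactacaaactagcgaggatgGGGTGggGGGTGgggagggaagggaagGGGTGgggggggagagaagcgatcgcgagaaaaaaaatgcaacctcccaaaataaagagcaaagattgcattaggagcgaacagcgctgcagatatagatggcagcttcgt
Klf13: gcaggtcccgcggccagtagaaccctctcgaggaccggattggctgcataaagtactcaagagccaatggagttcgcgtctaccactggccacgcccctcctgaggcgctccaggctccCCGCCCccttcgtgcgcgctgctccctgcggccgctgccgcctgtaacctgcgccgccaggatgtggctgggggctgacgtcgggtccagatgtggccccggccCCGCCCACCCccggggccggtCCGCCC
The Klf3 sequence, of the gene that fell, carries 6 GC boxes, 5 CACCC boxes and the CAGAC element, which lies 248 bases before the start. The Klf7 sequence carries 1 GC box and 3 CACCC boxes, and the Klf13 sequence 3 GC boxes and 1 CACCC box. A match describes the letters of this window and no binding was measured in these libraries.

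**Figure D1:**
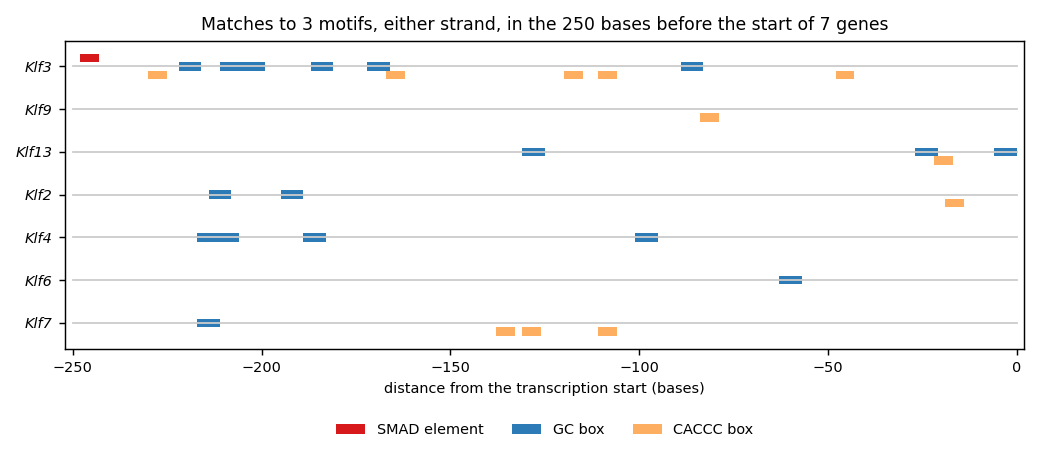
Matches to the CAGAC element, the GC box and the CACCC box on either strand (colored bars, as long as the motif) plotted by distance from the transcription start in bases, for the 7 Klf genes with a promoter sequence. Klf3 has the most matches, and Klf9 is the promoter without a GC box.

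After 2 h of TGFβ1, 4 of the 9 tested members had changed and all 4 passed the robust threshold: Klf7, Klf10 and Klf13 were higher and Klf3 was lower. The members were chosen with earlier results of these data known. Klf11 and Klf12, tested but not among the members, were not called at 2 h. Of all genes tested, 15.2% were called at 2 h (9.91% higher and 5.25% lower) and 6.25% were robustly changed (4.23% higher and 2.01% lower). After 12 h, 6 of the 9 differed from vehicle, when 43.3% of all genes did (21.8% higher and 21.5% lower). Klf7, Klf9, Klf10 and Klf13 were then higher and Klf3 and Klf5 lower, and 4 of these changes were robust (Klf3, Klf5, Klf7 and Klf10), against 19.6% of all genes (8.03% higher and 11.6% lower). The 12 h and 2 h cultures, compared with each other, differed in 4 of the 9, with Klf9 higher and Klf4, Klf5 and Klf13 lower at 12 h, against 34.1% of all genes (15.2% higher and 18.9% lower). The median log2FC of the 9 genes was 0.10 at 2 h and 0.38 at 12 h, beside -0.01 and 0.02 for all genes, and the median absolute log2FC was 0.40 and 0.79 beside 0.24 and 0.39. The ranges of the treated and vehicle libraries did not overlap for 5 of the 9 genes at 2 h, against 55.8% of all genes, and for 9 of the 9 at 12 h, against 76.8%. Between the 12 h and 2 h libraries they did not overlap for 6 of the 9, against 69.0%.

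**Figure D2:**
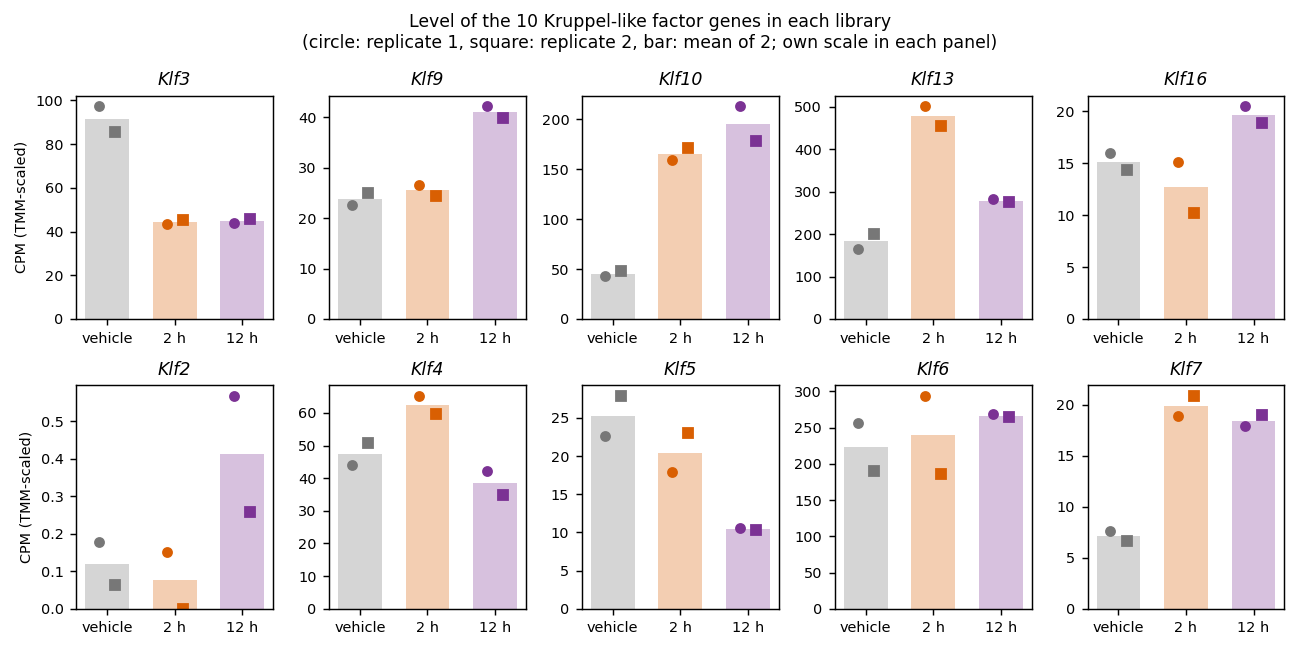
TMM-scaled CPM of each of the 10 Klf genes in the 2 vehicle, 2 TGFb2h and 2 TGFb12h libraries, each panel on its own linear scale from 0, with symbols for replicates and a bar for the mean. Klf10 rose and stayed high, Klf13 peaked at 2 h, Klf3 fell by 2 h and stayed low, and Klf5 was lowest at 12 h.

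The CtBP-binding repressors were represented by Klf3. Klf3 (Entrez 16599, chr5:65194628-65221368 on the plus strand of NCBIM37, the build also known as mm9) was at 97.3 and 85.4 CPM in vehicle, 43.3 and 45.1 CPM at 2 h and 43.9 and 45.6 CPM at 12 h. Every treated library was thus below both vehicle libraries, and the treated libraries of the 2 times overlapped. By edgeR, the log2FC was -1.05 (SE 0.109, adjusted p = 0.00188) at 2 h and -1.03 (SE 0.108, adjusted p = 0.000544) at 12 h, and the 2.07-fold lower level at 2 h was therefore just past the robust threshold. Without vehicle replicate 1, the log2FCs were -0.95 and -0.94, still called (adjusted p = 0.0170 and 0.00452) but no longer robust, so that 3 members remained robust at each time. Between 2 h and 12 h the log2FC was 0.02, with a 95% interval of -0.24 to 0.28. In bulk RNA, fewer cells that express a gene and less of its RNA per cell cannot be told apart, here and for every gene below.

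The relatives of Klf3 were Klf8, too low to test, and Klf12, another CtBP-recruiting repressor. Klf12 was at 4.06 and 2.80 CPM in vehicle, 3.80 and 3.38 CPM at 2 h and 9.46 and 8.58 CPM at 12 h. It was unlike Klf3 in that its 12 h libraries were above all others, with a log2FC of 1.39 against vehicle (SE 0.242, adjusted p = 0.00424 by edgeR). Klf8 had 17 and 12 counts in vehicle, 7 and 1 counts at 2 h and 2 and 1 counts at 12 h. Scaled for depth, its summed counts at 12 h were 0.0797 times those in vehicle, with an exact 95% interval of 0.0155 to 0.257 that covers counting error alone.

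Of the 4 members that bind SIN3A, 2 rose at 2 h (Klf10 and Klf13) and 3 differed from vehicle at 12 h, all higher (Klf9, Klf10 and Klf13), where 9.91% of all genes were called higher at 2 h and 21.8% at 12 h. Klf10 (Entrez 21847, chr15:38221219-38230464, minus strand), also named TIEG1 and known to repress Smad7, was at 43.1 and 47.8 CPM in vehicle, 159.5 and 171.8 CPM at 2 h and 213.2 and 178.0 CPM at 12 h. Both treated groups were clear of vehicle, and Klf10 showed the steepest rise of the 9 genes at either time. It was 3.65-fold higher at 2 h (log2FC 1.87, SE 0.130, adjusted p = 0.000502 by edgeR) and 4.31-fold higher at 12 h (log2FC 2.11, SE 0.131, adjusted p = 8.57e-05). Between the times the log2FC was 0.24, with a 95% interval of -0.06 to 0.54 and an adjusted p of 0.183 by edgeR. Leaving out any library kept the log2FC between 1.79 and 1.94 at 2 h and between 1.96 and 2.22 at 12 h.

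Klf13 (Entrez 50794, chr7:71031237-71083801, minus strand), a regulator of Ccl5 in T cells, differed between the times. It was at 164.4 and 201.4 CPM in vehicle, 501.5 and 454.5 CPM at 2 h and 282.3 and 275.4 CPM at 12 h. The 3 groups did not overlap, with the 2 h libraries highest and the 12 h libraries between them and vehicle. The log2FC by edgeR was 1.39 at 2 h (SE 0.130, 2.61-fold, adjusted p = 0.00129) and 0.61 at 12 h (SE 0.128, 1.52-fold, adjusted p = 0.00916). The difference between the times was itself past the threshold, with a log2FC of -0.78 from 2 h to 12 h (SE 0.128, adjusted p = 0.00497). The call at 12 h was lost without vehicle replicate 1 (log2FC 0.46, adjusted p = 0.0602), without TGFb12h replicate 1 (0.58, adjusted p = 0.0690) and without TGFb12h replicate 2 (0.62, adjusted p = 0.0604), and the call between the times without TGFb12h replicate 2 (-0.76, adjusted p = 0.0546).

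Klf9 (Entrez 16601, chr19:23215716-23241401, plus strand), a gene that glucocorticoids and thyroid hormone induce, showed the reverse timing. Its level was 22.6 and 25.1 CPM in vehicle, 26.6 and 24.4 CPM at 2 h and 42.1 and 39.9 CPM at 12 h, and the 2 h libraries overlapped vehicle while the 12 h libraries lay above both. The log2FC at 2 h was 0.10, with a 95% interval of -0.20 to 0.39 (adjusted p = 0.644 by edgeR), and at 12 h it was 0.79 (SE 0.122, adjusted p = 0.00270). From 2 h to 12 h, Klf9 rose by 0.69 on the log2 scale (SE 0.122, adjusted p = 0.00651 by edgeR), a call that was lost without TGFb12h replicate 1 (0.64, adjusted p = 0.0644). With scaling by total counts the log2FC at 2 h was -0.01, so no direction can be given for that time. Mir1192, a microRNA gene on the same strand, lies within the span of Klf9, and microRNAs were left out of the counting.

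Klf16 (Entrez 118445, chr10:80029874-80040041, minus strand), a repressor of the same subgroup, was at 16.0 and 14.3 CPM in vehicle, 15.1 and 10.2 CPM at 2 h and 20.5 and 18.9 CPM at 12 h. The 12 h libraries were above all others, but no comparison passed the threshold. The log2FC by edgeR was -0.26 at 2 h (95% interval -0.77 to 0.25, adjusted p = 0.463), 0.38 at 12 h (-0.13 to 0.88, adjusted p = 0.193) and 0.64 from 2 h to 12 h (0.13 to 1.14, adjusted p = 0.0574). The last value passed with the replicate number as a block (0.65, adjusted p = 0.00779), in which libraries of the same number are paired. It also passed with limma-voom (0.66, adjusted p = 0.0433), with DESeq2 (0.64, adjusted p = 0.0416) and without TGFb2h replicate 1 (0.95, adjusted p = 0.00988 by edgeR). Without TGFb2h replicate 2 it was 0.38 (adjusted p = 0.165 by edgeR), and over the 6 fits that leave out a library the adjusted p ranged from 0.00988 to 0.247. Klf11, the remaining TGFβ-inducible early gene of the subgroup by name (TIEG2), was at 42.3 and 31.2 CPM in vehicle, 40.4 and 29.7 CPM at 2 h and 41.1 and 32.6 CPM at 12 h. Its log2FC was -0.07 at 2 h (95% interval -0.59 to 0.46) and 0.01 at 12 h (-0.52 to 0.53). The upper ends of both intervals lay below the lower ends of those of Klf10, which were 1.55 and 1.79.

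**Figure D3:**
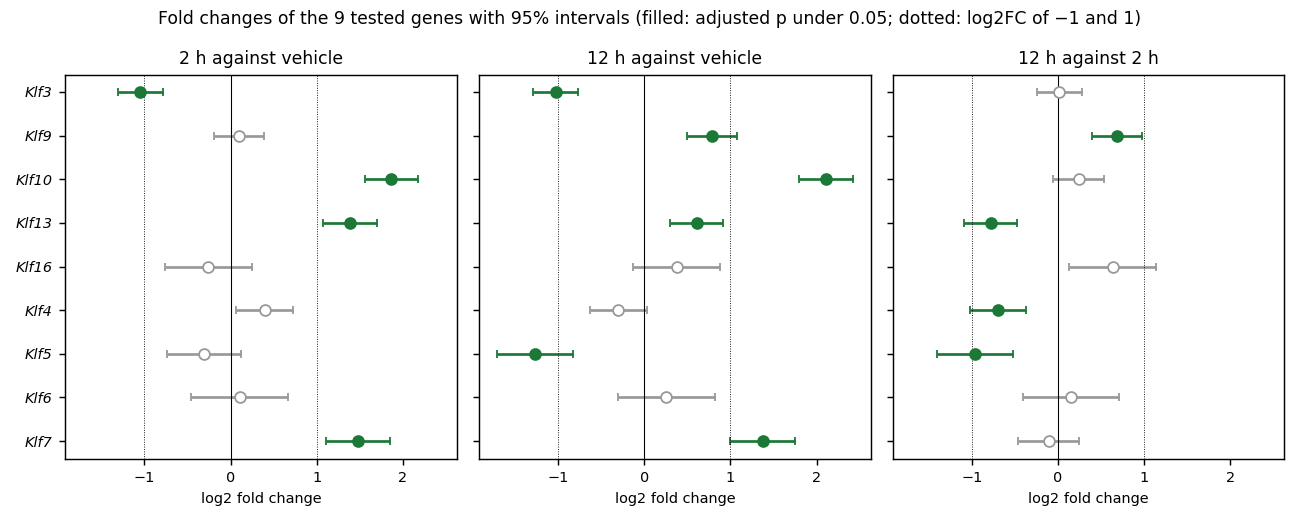
Log2 fold change with its 95% interval for the 9 tested members at 2 h against vehicle, at 12 h against vehicle and at 12 h against 2 h, with filled points at an adjusted p under 0.05 and dotted lines at -1 and 1. Klf10 has the highest value at both times and Klf13 is called lower at 12 h than at 2 h.

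Among the 4 tested activators, 1 rose at 2 h (Klf7) and 2 differed from vehicle at 12 h, with Klf7 higher and Klf5 lower, where 9.91% of all genes were called higher at 2 h and 43.3% were called in either direction at 12 h, a share near that of these 4. Klf7 (Entrez 93691, chr1:64076021-64168856, minus strand), known for its part in axon outgrowth, was at 7.60 and 6.63 CPM in vehicle, 18.9 and 20.8 CPM at 2 h and 17.9 and 19.0 CPM at 12 h. It was thus higher in every treated library than in both vehicle libraries, and the 2 treated times overlapped. The log2FC by edgeR was 1.48 (SE 0.156, 2.79-fold, adjusted p = 0.00195) at 2 h and 1.37 (SE 0.155, 2.59-fold, adjusted p = 0.000717) at 12 h, with -0.11 between the times (95% interval -0.46 to 0.25). The genes Gm17427 and Gm13748 overlap Klf7 on the opposite strand, and counting was strand-specific.

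Klf5 (Entrez 12224, chr14:99697910-99712624, plus strand) was at 22.6 and 27.9 CPM in vehicle, 17.9 and 23.0 CPM at 2 h and 10.6 and 10.3 CPM at 12 h. The 2 h libraries overlapped vehicle, and the 12 h libraries were below all 4 others. The log2FC by edgeR was -0.31 at 2 h (95% interval -0.73 to 0.12, adjusted p = 0.310) and -1.27 at 12 h (SE 0.184, 2.41-fold lower, adjusted p = 0.00203). From 2 h to 12 h it fell by 0.96 on the log2 scale (SE 0.183, adjusted p = 0.00843 by edgeR). This last call was lost without TGFb12h replicate 1 (-0.996, adjusted p = 0.0632) and without TGFb12h replicate 2 (-0.94, adjusted p = 0.0672).

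Klf4 (Entrez 16600, chr4:55540013-55545347, minus strand), also one of the factors used to reprogram cells to pluripotency, was at 44.1 and 50.7 CPM in vehicle, 65.2 and 59.5 CPM at 2 h and 42.1 and 34.8 CPM at 12 h. Its 2 h libraries lay above the other 4, and its 12 h libraries lay below both vehicle libraries. Against vehicle, neither time passed the threshold by edgeR, with a log2FC of 0.40 at 2 h (95% interval 0.07 to 0.72, adjusted p = 0.108) and -0.30 at 12 h (-0.63 to 0.03, adjusted p = 0.124). With the replicate block the 2 h value was called (0.39, adjusted p = 0.0436), and with scaling by total counts the 12 h value was called (-0.43, adjusted p = 0.0436). Between the times Klf4 fell by 0.70 on the log2 scale (SE 0.137, adjusted p = 0.00969 by edgeR), which was lost without TGFb12h replicate 2 (-0.57, adjusted p = 0.0767).

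Klf6 (Entrez 23849, chr13:5860735-5869639, plus strand), a broadly expressed family member, was at 255.8 and 190.2 CPM in vehicle, 293.6 and 185.7 CPM at 2 h and 268.9 and 264.3 CPM at 12 h. Its replicates in vehicle and at 2 h stood further apart than the group means, and no comparison passed the threshold. The log2FC by edgeR was 0.10 at 2 h (95% interval -0.46 to 0.66, adjusted p = 0.804) and 0.26 at 12 h (-0.30 to 0.82, adjusted p = 0.414), and leaving out 1 library moved the 2 h value between -0.28 and 0.40. With scaling by total counts the 2 h value was -0.01, so it has no settled sign.

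Klf2 (Entrez 16598, chr8:74842932-74845555, plus strand), an endothelial gene induced by blood flow, had 3 and 1 counts in vehicle, 3 and 0 at 2 h and 13 and 5 at 12 h. It was under the filter of 2 CPM in at least 2 libraries and was not tested. Scaled for depth, its summed counts were 3.47-fold higher at 12 h than in vehicle, with an exact 95% interval of 1.14 to 14.1 that covers counting error alone. In a fit with no filter, which takes the spread between replicates into account, Klf2 was not called at 12 h (log2FC 1.73, SE 1.026, adjusted p = 0.253 by edgeR). Of 5 endothelial markers, 4 had at most 3 counts in every library, and the remaining one, Cdh5, was also highest at 12 h, at 1 and 2 counts in vehicle, 6 and 5 at 2 h and 39 and 36 at 12 h. Its part in the Klf2 counts was not tested.

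Compared per kb of exon, which sets genes of different length on 1 scale, Klf6 was highest in vehicle and Klf2 lowest, and the levels in vehicle were 52.9 ± 11.0 CPM per kb for Klf6, 35.0 ± 3.25 for Klf3 and 27.7 ± 3.97 for Klf13 (mean ± SD, n = 2). Klf4, at 15.5 ± 1.52 CPM per kb, and Klf5, at 14.7 ± 2.15, were next and differed by less than their SDs. Klf10 followed at 11.9 ± 0.880, Klf9 at 7.30 ± 0.541, Klf16 at 5.73 ± 0.433 and Klf7 at 0.875 ± 0.0841 CPM per kb. The order was the same in both vehicle libraries. Counts were summed over UCSC KnownGene exons and the lengths came from GENCODE, so the order between genes depends on these lengths. Klf7 was therefore among the genes with the steepest rise and still the lowest of the tested members per kb in all 6 libraries.

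At 2 h the order at the top had changed. Klf13 led in both libraries at 72.5 ± 5.04 CPM per kb, and Klf6 (56.8 ± 18.1) and Klf10 (43.3 ± 2.28) exchanged places between the replicates. At 12 h Klf6 led again at 63.2 ± 0.777 CPM per kb, followed by Klf10 at 51.2 ± 6.52 and Klf13 at 42.3 ± 0.737. Klf4 (12.6 ± 1.68) and Klf9 (12.6 ± 0.495) did not differ beyond their spread at 12 h. Klf5 had moved from above Klf9 and Klf16 to below both, at 6.07 ± 0.148 CPM per kb.

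**Figure D4:**
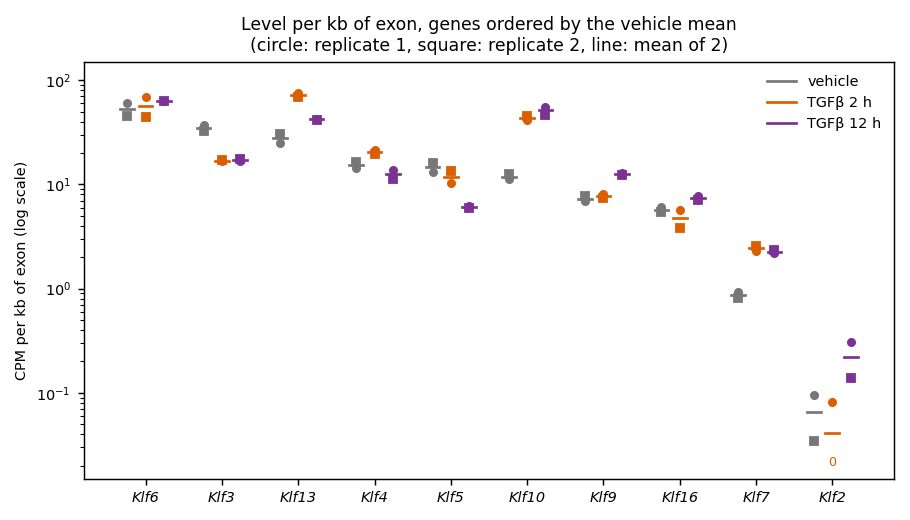
CPM per kb of exon on a log scale for the 10 Klf genes, ordered by their vehicle mean, with symbols for the libraries of each group and a line for the mean of 2. Klf13 is highest at 2 h and Klf6 in vehicle and at 12 h, while Klf2 is near the floor throughout.

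Expressed as a share of the summed Klf level per kb, the makeup of the 10 genes shifted from Klf3 toward Klf10. Klf3 made up 19.5% to 21.21% of the sum in vehicle, 6.582% to 7.783% at 2 h and 7.565% to 8.41% at 12 h. Klf10 made up 6.412% to 7.465%, 16.56% to 20.26% and 22.43% to 25.1% in the same order. The share of Klf13 was 14.19% to 18.23% in vehicle, 30.18% to 31.06% at 2 h and 19.25% to 20.11% at 12 h. Shares sum to a fixed total, so a rise in one lowers the others, and they are given as a description with no test. They rest on the same exon lengths.

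Of 16 other Krüppel-like and Sp genes, 7 were tested (Klf11, Klf12, Sp1, Sp2, Sp3, Sp4 and Sp8), and 0 were called at 2 h by edgeR, 0 by limma-voom and 0 by DESeq2, with 2 at an unadjusted p under 0.05 in edgeR and 1 with the replicate block. The share of all genes called was 15.2% at 2 h, 43.3% at 12 h and 34.1% between the times. At 12 h 1 was higher (Klf12), and from 2 h to 12 h 2 were higher, Klf12 (log2FC 1.33, adjusted p = 0.00685) and Sp8 (0.92, adjusted p = 0.00806 by edgeR), and 3 were called with the replicate block. The medians of these 7 genes were -0.07, 0.01 and 0.26 in the 3 comparisons. Klf1, Klf8, Klf14, Klf15, Klf17, Sp5, Sp6, Sp7 and Sp9 were under the filter, and Klf14, Klf17 and Sp5 had no count in any library. In a fit with no filter, Sp6 was called lower at 2 h (log2FC -1.97, adjusted p = 0.0403 by edgeR) and Klf8 lower at 12 h (-3.53, adjusted p = 0.0134), on 27 and 19 counts of Sp6 in vehicle and 10 and 4 at 2 h, and on the Klf8 counts given above.

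Of the listed genes for corepressors, coactivators and ubiquitin ligases that act with Krüppel-like factors, 14 of 14 passed the filter and were tested. At 2 h 3 were higher and 1 lower: Ctbp1 (log2FC 0.58, adjusted p = 0.00890) and Ctbp2 (0.65, adjusted p = 0.00587), the corepressors that Klf3 recruits, Fbxw7 (0.82, adjusted p = 0.00734), a ligase subunit that targets Klf5, and the acetyltransferase gene Kat2b (-0.68, adjusted p = 0.0283, all by edgeR). These 4 were called in the same directions at 12 h, at 0.55, 0.76, 0.69 and -0.81. The 4 of 14 called at each time stand beside 15.2% of all genes at 2 h and 43.3% at 12 h. Hdac2 was higher at 12 h than at 2 h (0.37, adjusted p = 0.0380 by edgeR). The medians of the 14 genes were 0.14 at 2 h and 0.20 at 12 h.

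Of 9 genes upstream of Klf genes in other settings, 8 were tested and Mef2c was under the filter. Smad3, which carries the TGFβ signal to DNA, was higher at 2 h (log2FC 0.96, adjusted p = 0.00508 by edgeR) and lower at 12 h than at 2 h (-0.73, adjusted p = 0.00676). At 12 h Mef2d was higher (0.54, adjusted p = 0.0490 by edgeR) and Nr3c1, the glucocorticoid receptor that acts upstream of Klf9, was lower (-0.78, adjusted p = 0.0126). The 1 of 8 called at 2 h and 2 of 8 at 12 h stand beside the same 15.2% and 43.3% of all genes. The medians were 0.18 at 2 h and 0.23 at 12 h.

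Of 14 genes known elsewhere as targets of Krüppel-like factors, 8 were tested, and Eng, Thbd, Nos3, S1pr1 and Ccl5 were among those under the filter. At 2 h 4 were robustly higher, Pdgfa (log2FC 3.22), Tgfbr1 (2.50), Smad7 (2.07) and Plau (1.36), and the same 4 were robustly higher at 12 h at 4.12, 1.43, 2.65 and 1.59. Of all genes, 4.23% were robustly higher at 2 h and 8.03% at 12 h. Smad7, a target that Klf10 represses in other cells, was thus higher at both times together with Klf10. Ccnd1 was lower at both times (-0.53 and -0.52, adjusted p at 2 h 0.0499 by edgeR), and Lgals3 was lower at 12 h (-0.94) and at 12 h against 2 h (-1.11). Pdgfa was higher at 12 h than at 2 h (0.90, adjusted p = 0.00559 by edgeR), a comparison in which 34.1% of all genes were called. Cdkn1a and Cdh1 were not called at either time. The medians of the 8 genes were 0.93 at both times. Several of these genes are direct targets of TGFβ signaling as well, and the actions of Krüppel-like factors and SMAD proteins on them cannot be told apart here.

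By the thresholds and timing rules of the study, Klf7, Klf10 and Klf13 were early-upregulated, Klf3 was early-downregulated and Klf5 was late-downregulated. Klf4, Klf6, Klf9 and Klf16 fell in the TGFβ-independent class, although Klf9 was called higher at 12 h with a log2FC below 1 and Klf4 was called lower at 12 h than at 2 h.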

How the data were processed

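Strand-specific total RNA-seq was measured in 6 libraries, grouped by the labels into 3 groups of 2. Per the study's methods, the authors filtered reads, aligned them to mm9 with subjunc (Rsubread) and kept those with a unique position, less the duplicates that SAMtools (0.1.19 in the submitters' processing notes) marked, and summed reads over UCSC KnownGene exons with featureCounts, leaving out microRNAs. The deposited values are raw counts of 21240 genes. Members were matched by gene symbol, and the members and gene lists were chosen with earlier results of these data known.

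Counts were analyzed in R 4.3.3 with edgeR 4.0.16: genes reaching 2 CPM in 2 or more libraries, TMM factors, a quasi-likelihood fit of the 3 groups with 3 residual degrees of freedom, two-sided tests and Benjamini-Hochberg adjustment within each comparison. The common biological coefficient of variation was 0.148. A standard error is the absolute log2FC divided by the square root of F, and intervals are at 95%. Over all tested genes, replicates differed by 16.9 to 54 times the variance of counting alone. Exon lengths and positions came from GENCODE on NCBIM37, and promoters from RefSeq on GRCm38.p6. Scripts were tested on simulated data.

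Replicate numbers come from the labels. Deviations of same-numbered libraries from their group means correlated at r = 0.708 (veh and TGFb2h), 0.263 (veh and TGFb12h) and 0.392 (TGFb2h and TGFb12h) across genes. The numbers were taken as pairs in the replicate block alone, which was an alternative. The main fit, with its standard errors, intervals and adjusted p, was unpaired. The alternatives were limma-voom 3.58.1, DESeq2 1.42.0, DESeq2 size factors, total counts, 2 other filters, the replicate block, fits of the 2 groups compared, a prior count of 2 and each library left out. Named were all members, the listed genes past the robust threshold (up to 4 a list), Klf11, Klf12 and family genes under the filter. Other genes named were chosen after their values were seen, and some listed genes are not reported here.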

Additional observations from a re-analysis of the deposited data

Results flagged for a closer look

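For 4 of the 9 tested members the response at 12 h differed from that at 2 h by a direct test of the libraries of the 2 times (edgeR's quasi-likelihood test, adjusted over all genes), as for 34.1% of all genes. Klf13 was lower at 12 h than at 2 h by a log2FC of -0.78 (adjusted p = 0.00497), Klf5 by -0.96 (0.00843) and Klf4 by -0.70 (0.00969), and Klf9 was higher by 0.69 (0.00651). Each of these calls was lost without 1 of the TGFb12h libraries: without replicate 1 for Klf9 (adjusted p = 0.0644), without replicate 2 for Klf13 (0.0546) and Klf4 (0.0767), and without either for Klf5 (0.0632 and 0.0672, all by edgeR). The course relative to vehicle was not alike: Klf13 was higher at both times, Klf5 was lower and Klf9 higher at 12 h, and Klf4 was not called at either time.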

How the results depend on the processing

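Of 405 alternative values of the 27 member results, 383 kept their direction and side of the threshold, 8 lost a call, 6 gained one and 8 changed sign, the last all in values not called in the first place. With 2 libraries a group, the number of members called between 12 h and 2 h depended most on single libraries. With all libraries it was 4 by edgeR and 5 with limma-voom, with DESeq2 and with the replicate block. The log2FCs of the 4 genes called by edgeR kept their sign with each library left out. They ranged from -0.85 to -0.70 for Klf13, -1.13 to -0.77 for Klf5, -0.85 to -0.57 for Klf4 and 0.62 to 0.75 for Klf9. With 1 library left, that library is assumed to vary like the other groups. The number called at 2 h was 4 in every alternative but the replicate block (5), and that at 12 h ranged from 5 to 6 with a library left out and was 7 with total counts. The replicate block added the calls of Klf4 at 2 h and of Klf16 from 2 h to 12 h and changed no other call of the 9 tested members. Scaling by total counts moved the median log2FC of all genes to -0.12 at 2 h and -0.115 at 12 h, and with it Klf6 at 2 h became -0.01091, Klf9 at 2 h -0.01454 and Klf3 from 2 h to 12 h -0.001083. With a library left out, Klf6 ranged from -0.2829 to 0.3973 at 2 h and from -0.1409 to 0.5225 from 2 h to 12 h, and Klf3 from 2 h to 12 h ranged from -0.01371 to 0.04574. The cause of these shifts was not tested. Klf2 and Klf8, both under the filter, rested on few counts: 3 counts correspond to 0.131 to 0.191 CPM.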
